A study of Mus musculus with 16 samples.

Results

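The genes described here are 39 antiviral genes known to be induced by type I interferon. They were chosen by symbol from the 35275 genes of the deposited count table, and all 39 passed the filter on low counts that left 13080 genes for testing. They comprise the transcription factors Stat2, Irf9 and Irf7, sensors of foreign nucleic acids, and effectors that block viral replication. The question is how their RNA levels stood in macrophages with and without TGF-β1, and with and without deletion of Smad7, the inhibitory SMAD that TGF-β itself induces.

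The cells were macrophages grown with CSF-1 from tibial bone marrow of C57BL/6 mice, measured by sequencing of polyadenylated RNA in 16 libraries, 4 per group. Every mouse carried floxed Smad7 alleles and had received tamoxifen at 20 mg/kg for 5 days from an age of 1 month, with marrow taken 2 weeks later. The fl/fl groups are Smad7 fl/fl littermates, and the KO groups are CAGGCre-ER;Smad7 fl/fl, in which Cre acts in all tissues and not in macrophages alone. In both genotypes the cells had about 12 hours without serum and were then either not treated or kept for 4 hours with 10 ng/ml TGF-β1. The fl/fl mice had no Cre, so an effect of Cre with tamoxifen and an effect of losing Smad7 cannot be told apart. Nothing in the labels says whether the 4 libraries of a group came from separate mice, so p-values measure the spread between these libraries, which may be technical. In bulk RNA, fewer cells expressing a gene and less RNA per cell cannot be told apart. The labels name no interferon and no virus among the treatments.

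Type I interferons bind the receptor formed by IFNAR1 and IFNAR2, whose kinases TYK2 and JAK1 phosphorylate STAT proteins, STAT2 among them. With IRF9 these form the complex ISGF3, which binds the interferon-stimulated response element (ISRE) in the promoters of target genes. Macrophages in culture are known to keep part of this programme active through low, constitutive interferon signalling. The products include sensors that start further interferon production, such as RIG-I, and effectors that bind, degrade or edit viral RNA, deplete nucleotides or hold budding virions at the membrane.

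The promoters of members with large and with small fold changes are shown first, because they share the ISRE core. RefSeq promoter windows on GRCm38.p6, from 250 bases before to 50 after the annotated start, were found for 29 of the 39 members. The ISRE core, GAAA and GAAA with any 2 bases between them, searched on both strands, was in a window of 14 of these 29 genes (48.3%) and of 4.0% of 27025 genes with a window. The gamma-activated sequence TTCNNNGAA was in a window of 7 of the 29 (24.1%), against 9.6% of all genes. The 160 bases before the start follow, 5′ to 3′ on the strand of the gene, with matches to the ISRE core in capitals and overlapping matches run together.
Ifit1 (chr19:34640729-34640888, plus strand): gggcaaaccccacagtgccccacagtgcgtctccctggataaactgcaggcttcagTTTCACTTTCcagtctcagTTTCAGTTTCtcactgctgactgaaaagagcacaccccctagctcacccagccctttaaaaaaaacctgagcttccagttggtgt
Rsad2 (chr12:26456453-26456612, minus strand): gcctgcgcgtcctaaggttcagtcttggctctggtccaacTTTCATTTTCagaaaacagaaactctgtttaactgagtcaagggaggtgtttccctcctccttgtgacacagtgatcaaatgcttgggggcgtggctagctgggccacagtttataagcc
Isg15 (chr4:156200819-156200978, minus strand): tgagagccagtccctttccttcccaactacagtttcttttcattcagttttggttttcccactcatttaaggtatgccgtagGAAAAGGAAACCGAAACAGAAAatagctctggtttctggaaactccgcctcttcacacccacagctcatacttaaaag
Oas1a (chr5:120907526-120907685, minus strand): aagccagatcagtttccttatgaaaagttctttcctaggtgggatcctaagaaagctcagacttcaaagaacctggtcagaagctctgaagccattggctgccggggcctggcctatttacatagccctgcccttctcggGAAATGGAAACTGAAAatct
Oas3 (chr5:120777660-120777819, minus strand): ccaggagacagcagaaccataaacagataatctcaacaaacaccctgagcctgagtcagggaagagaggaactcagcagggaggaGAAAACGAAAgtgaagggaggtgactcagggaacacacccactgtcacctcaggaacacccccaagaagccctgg
Bst2 (chr8:71537473-71537632, minus strand): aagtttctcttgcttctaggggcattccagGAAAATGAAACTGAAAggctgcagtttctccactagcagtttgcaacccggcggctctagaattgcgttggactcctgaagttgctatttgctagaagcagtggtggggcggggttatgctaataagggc
The capitals are the ISRE core or its reverse complement. Ifit1 and Rsad2 were among the members with the lowest fold changes under TGF-β1, while Oas1a, Oas3 and Bst2 did not pass the test in either genotype and Isg15 passed in KO only once KO untreated replicate 1 was left out. Oas1a holds an overlapping pair of matches close to the start, Isg15 a run of 3 and Bst2 a pair further upstream. In fl/fl cells the median log2 fold change with TGF-β1 was -0.70 over the 14 members with the ISRE core and -0.68 over the 15 matched members without it. A match is a description of letters, not a measured binding site.

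Library totals ran from 16865591 to 23741079 counts. Smad7, the deleted gene, stood at 3.89, 5.24, 6.03 and 4.80 CPM, counts relative to the scaled library total, in fl/fl untreated libraries 1 to 4 and at 37.3, 40.9, 45.6 and 58.3 CPM in the fl/fl TGF-β1 libraries. In KO it stood at 5.87, 1.28, 1.64 and 2.00 CPM untreated and at 19.7, 14.8, 10.8 and 10.3 CPM with TGF-β1. The log2 difference of KO from fl/fl was -0.89 untreated (edgeR adjusted p = 0.423) and -1.72 with TGF-β1 (adjusted p = 0.122) with all libraries, and -1.63 (adjusted p = 0.0307) and -1.70 (adjusted p = 0.000828) without KO untreated replicate 1. Reads in the undeleted part of Smad7 are still counted, so a value above 0 is no measure of intact transcript. The library labelled KO untreated replicate 1 lay within the range of the fl/fl untreated libraries, and the other 3 of its group lay below all of them. It also lay below the other 3 KO untreated libraries in 38 of the 39 members, against 30.7% of all tested genes, and was inside the range of the KO TGF-β1 libraries in 20 members and below it in 19, where 69.9% and 15.2% of all tested genes lay. Counts of members called, and the KO fold changes of members given with all their library values, are therefore given with and without that library. In fl/fl TGF-β1 replicate 4, mitochondrial genes took 0.575% of counts against 1.20% to 2.71% in the others, and 23 members had their lowest value of the group there, as did 41.2% of all tested genes. Macrophage markers were high in every library, with a summed level of 15590 to 23820 CPM over the 7 measured of 8. Markers of T and NK cells, of mast cells and of erythroid cells each summed to at most 0.886 CPM. Those of B cells, conventional dendritic cells and stromal cells reached 4.07, 5.86 and 7.83 CPM. Those of neutrophils and of endothelial cells reached 17.1 and 22.2 CPM, and those of monocytes 118 CPM. Of 7 markers of plasmacytoid dendritic cells, the main interferon producers of marrow, 5 were under 1 CPM in every library and Siglech reached at most 2.29 CPM. The remaining marker, Tcf4, stood at 98.2 to 204 CPM.

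Before TGF-β1 the members were well expressed. On the FPKM scale, which divides by gene length, their median in fl/fl untreated cells was 33.5, against 6.85 for all tested genes, and 35 of 39 lay above the latter. The highest level was that of Parp14, an ADP-ribosyltransferase, with 139 FPKM, followed by Bst2 with 101.5 and Ifit2 with 85.8. The lowest was Ifi44, with 2.36 FPKM. The untreated fl/fl libraries differed among themselves: 35 members were highest in replicate 1 and 33 were lowest in replicate 3, against 29.5% and 21.3% of all tested genes. The members' mean log2 CPM was 6.61, 6.41, 5.84 and 6.01 in fl/fl untreated libraries 1 to 4, and 5.72, 5.36, 5.26 and 4.99 in the fl/fl TGF-β1 libraries. Every TGF-β1 library of fl/fl thus lay below every untreated one. In KO the means were 5.08, 6.40, 6.52 and 6.64 untreated and 5.11, 5.35, 5.65 and 5.75 with TGF-β1, where replicate 1 of the untreated group is the lowest of all 8.

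**Figure D1:**
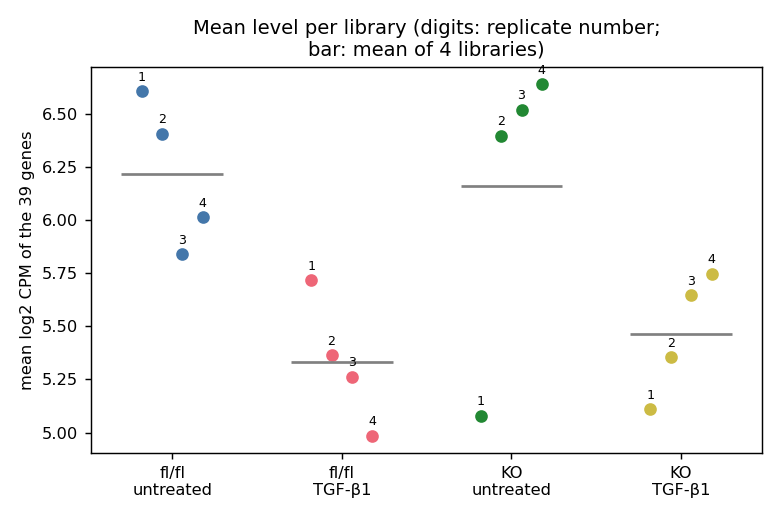
Mean log2 CPM of the 39 genes (vertical axis) in each library, by group, with the replicate number above each point and a bar at the mean of the 4 libraries. The fl/fl groups do not overlap, and the KO groups overlap only through untreated replicate 1, at 5.08.

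The first comparison asks what TGF-β1 did to these genes where Smad7 was intact. In fl/fl cells 12 of the 39 members were lower with TGF-β1 at an edgeR adjusted p under 0.05, against 7.61% of all tested genes, and 0 were higher, against 7.87%. Those that fell were Stat2, the RNA sensors Ddx58 and Dhx58, Ifi204, Ifit1, Mx1, Mx2, Rsad2, Cmpk2, Samd9l, Rtp4 and Xaf1. The median log2 fold change over all 39 was -0.77, against -0.01 over all tested genes, and 38 lay below 0, the exception being Bst2. At an unadjusted p under 0.05 there were 26 lower and 0 higher, against 14.1% and 13.3% of all tested genes. In 20 members all 4 TGF-β1 libraries lay below all 4 untreated libraries in CPM, against 12.5% of all tested genes, and in 0 members they lay above them, against 11.4%.

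The count of 12 depends on the libraries that set the spread. Without the library labelled KO untreated replicate 1, which is not in this comparison but enters the shared estimate of the spread, it was 27 of 39, against 9.02% of 13335 genes, with 0 higher against 8.71%. The 12 were all among them. It was 5 without fl/fl untreated replicate 1 (Mx1, Mx2, Rsad2, Cmpk2 and Rtp4), against 4.68% of the genes tested in that fit. It was also 5 without fl/fl TGF-β1 replicate 4 (Samd9l in place of Rsad2), against 5.85%, and 7 without fl/fl TGF-β1 replicate 3, against 5.87%. Mx1, Mx2, Cmpk2 and Rtp4 kept their call in all 16 fits that left out 1 library each. The labels do not say that replicate numbers pair the fl/fl libraries, and the correlations given under processing do not establish it. With the number as a block within each genotype the count was 29, against 9.05% of all tested genes, and 0 were higher, against 7.72%. DESeq2 called 23 lower and 0 higher, against 8.35% and 8.33% of the genes it tested. Within the 4 same-numbered fl/fl pairs, 33 members were lower with TGF-β1 every time, against 21.7% of all tested genes. The exceptions were Irf9, Oas3, Adar, Isg20, Bst2 and Ifi35. Markers of other cells differed in the same comparison. Summed monocyte markers were 71.4 to 104 CPM untreated and 27.7 to 68.6 CPM with TGF-β1, and summed plasmacytoid dendritic cell markers, set by Tcf4, were 115 to 139 and 148 to 204 CPM. Their part in the members' values was not tested.

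**Figure D2:**
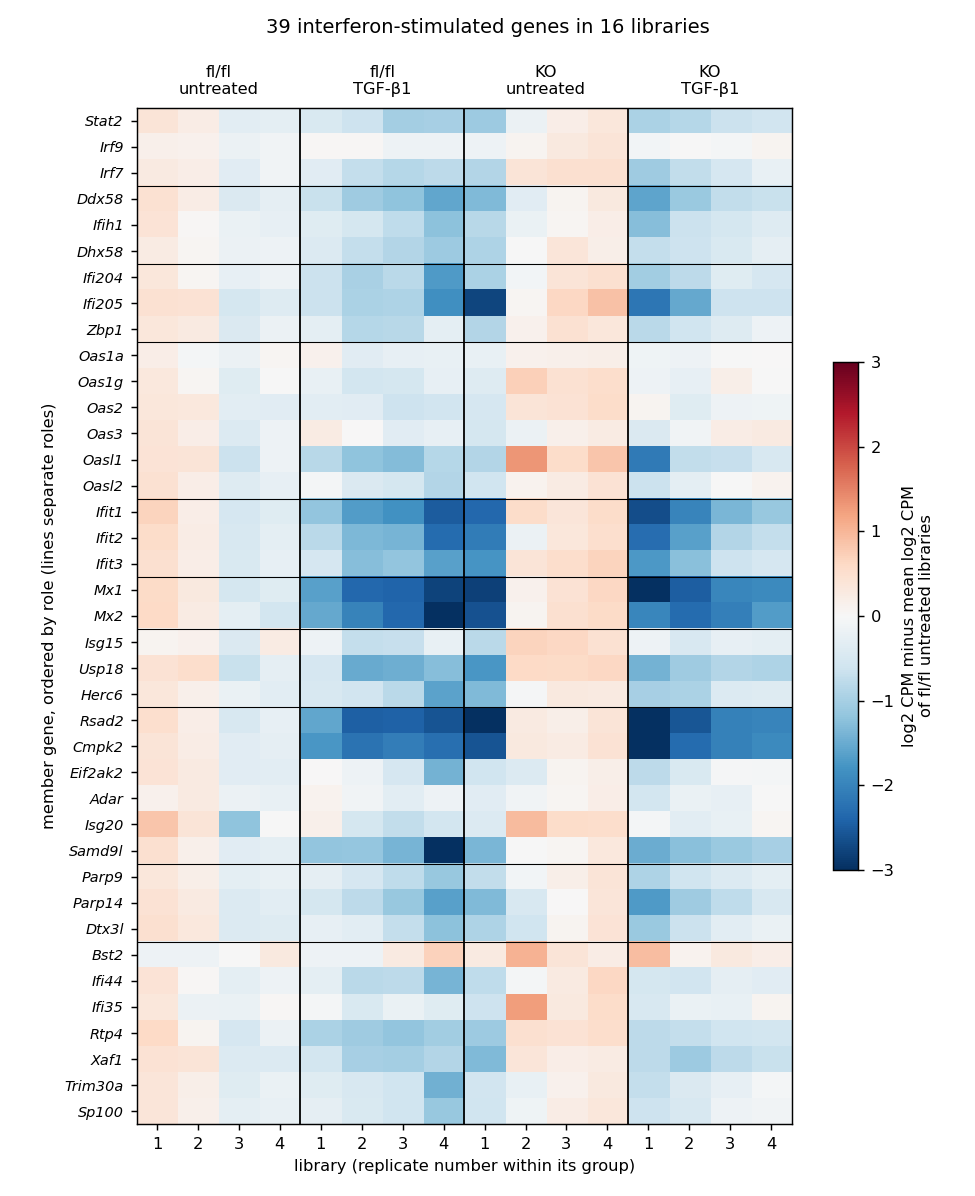
Log2 CPM of each of the 39 genes (rows, ordered by role) in each of the 16 libraries (columns), minus the mean of the fl/fl untreated libraries, from blue (lower) to red (higher), with the scale ending at 3 in each direction. The TGF-β1 columns of both genotypes and the column of KO untreated replicate 1 are blue in most rows, deepest for Mx1, Mx2, Rsad2 and Cmpk2.

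Among the transcription factors of the response, Stat2, the STAT that is particular to interferon signalling, was the one that passed in fl/fl with all 16 libraries. Its values were 309, 276, 188 and 193 CPM in fl/fl untreated libraries 1 to 4 and 172, 154, 116 and 118 CPM with TGF-β1. All treated libraries were below all untreated ones, and within each group libraries 1 and 2 were above libraries 3 and 4. The fall was 1.72-fold (log2 fold change -0.78, SE 0.25, edgeR adjusted p = 0.0387). In KO, Stat2 stood at 111, 208, 272 and 299 CPM untreated and at 123, 130, 152 and 159 CPM with TGF-β1, so the groups overlapped only through the low first library. Its KO log2 fold change was -0.66 (SE 0.25, adjusted p = 0.141) with that library and -0.86 (SE 0.19, adjusted p = 0.00301) without it. Irf7, which amplifies interferon production, had -0.68 in fl/fl (adjusted p = 0.0806). Irf9, the DNA-binding partner in ISGF3, had the smallest absolute change of the members in fl/fl, -0.07 (SE 0.12). Once KO untreated replicate 1 was left out the calls were Stat2 and Irf7 in both genotypes, and Irf9 passed in neither.

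Of the 3 RNA sensors, 2 fell in fl/fl. Ddx58 encodes RIG-I, which detects viral RNA with a 5′ triphosphate. It stood at 266, 224, 143 and 160 CPM untreated and at 122, 91.4, 83.1 and 65.4 CPM with TGF-β1 in fl/fl cells. The lowest untreated library was above the highest treated one, and the fall was 2.19-fold (log2 fold change -1.13, SE 0.31, edgeR adjusted p = 0.0196). In KO the values were 76.7, 151, 204 and 236 CPM untreated and 64.1, 89.3, 114 and 122 CPM with TGF-β1. Without the first untreated library these groups did not overlap, and the log2 fold change went from -0.78 (adjusted p = 0.174) to -0.99 (SE 0.24, adjusted p = 0.00803). Dhx58, the related regulator LGP2, fell 1.70-fold in fl/fl (adjusted p = 0.0202). Ifih1, the long-RNA sensor MDA5, had a log2 fold change of -0.71 (adjusted p = 0.0501). Without KO untreated replicate 1 all 3 passed in both genotypes.

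Ifi204, a DNA sensor of the PYHIN family, showed the same order of groups. It stood at 135, 111, 90.0 and 96.6 CPM in fl/fl untreated libraries and at 68.2, 54.8, 61.3 and 33.1 CPM with TGF-β1, without overlap, a 1.99-fold fall (log2 fold change -0.99, SE 0.27, edgeR adjusted p = 0.0190). Its KO values were 55.7, 101, 140 and 148 CPM untreated and 51.7, 61.6, 82.7 and 74.8 CPM with TGF-β1. The first untreated library again lay among the treated ones. The KO log2 fold change was -0.72 (adjusted p = 0.146), and -0.91 (adjusted p = 0.00556) without that library. Ifi205, a close relative on the same chromosome, and Zbp1, a sensor of Z-form nucleic acid linked to cell death, had -1.09 and -0.58 in fl/fl and passed in both genotypes only without that library. Reads shared between Ifi204 and Ifi205 could have been split by the authors' counting, so the values of each are uncertain.

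The oligoadenylate synthetases, which make a second messenger from ATP when they bind double-stranded RNA, were the role group whose median log2 fold change in fl/fl was closest to 0, at -0.44, and 0 of 6 passed there. Oas1a, the highest of them in mean FPKM over the 16 libraries, stood at 104, 86.5, 80.2 and 94.2 CPM untreated and at 98.7, 71.4, 76.6 and 78.1 CPM with TGF-β1 in fl/fl, so the groups overlapped. Its log2 fold change was -0.17 (SE 0.12, adjusted p = 0.401). Oas1a in KO stood at 77.3, 99.0, 101 and 102 CPM untreated and at 83.2, 82.2, 89.6 and 92.2 CPM with TGF-β1. That is a log2 fold change of -0.13 with all libraries and -0.19 (adjusted p = 0.355) without the first. Oas3, whose promoter is shown above, had -0.10 (SE 0.20) in fl/fl and 0.07 (SE 0.20) in KO.

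Oasl1, a relative that inhibits translation of Irf7 RNA, differed from the enzymes of its group. In fl/fl it stood at 15.4, 15.2, 7.38 and 10.5 CPM untreated and at 6.55, 5.02, 4.71 and 6.41 CPM with TGF-β1. The groups did not overlap, but the log2 fold change of -1.09 (SE 0.39) did not pass, with an edgeR adjusted p of 0.0721. In KO it stood at 6.30, 29.1, 17 and 20.6 CPM untreated and at 2.69, 6.92, 7.19 and 8.33 CPM with TGF-β1. There the fall was 2.89-fold (log2 fold change -1.53, SE 0.39, adjusted p = 0.0350), and 3.45-fold (adjusted p = 0.000302) without the first untreated library. With that library left out Oas2 and Oasl1 passed in fl/fl and Oas1g, Oas2 and Oasl1 in KO. Oas1a, Oas3 and Oasl2 passed in neither. Oas1a and Oas1g are near-identical neighbours on chromosome 5, so their separate values are uncertain.

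The IFIT genes encode proteins that bind viral RNA and block its translation, and they lie side by side on chromosome 19. Ifit1 stood at 239, 175, 107 and 119 CPM in fl/fl untreated libraries and at 67.2, 47.6, 42.8 and 26.7 CPM with TGF-β1. No treated library reached the lowest untreated one, and the fall was 3.47-fold (log2 fold change -1.80, SE 0.52, edgeR adjusted p = 0.0298). In KO, Ifit1 stood at 29.5, 224, 195 and 223 CPM untreated and at 24.0, 38.7, 59.1 and 69.0 CPM with TGF-β1. The first untreated library lay inside the treated range, and the other 3 were far above it. With it the KO log2 fold change was -1.82 (SE 0.52, adjusted p = 0.0581) and without it -2.14 (SE 0.33, adjusted p = 0.000103), a 4.41-fold fall.

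Ifit2 stood at 464, 366, 225 and 259 CPM untreated and at 180, 123, 121 and 63.3 CPM with TGF-β1 in fl/fl. The groups did not overlap, with a log2 fold change of -1.43 (SE 0.49, edgeR adjusted p = 0.0618). KO values were 74.0, 279, 396 and 447 CPM untreated and 65.1, 101, 172 and 192 CPM with TGF-β1. With all libraries the KO log2 fold change of Ifit2 was -1.17 (adjusted p = 0.204). Without KO untreated replicate 1, Ifit2 fell 2.78-fold in KO (adjusted p = 0.00695), and Ifit1, Ifit2 and Ifit3 passed in both genotypes. Read sharing among the IFIT genes was not resolved by the files, so each value carries that uncertainty.

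The Mx genes belong to a family of GTPases that trap viral nucleocapsids. They had the lowest median of the role groups in fl/fl, -2.26 on the log2 scale. RNA levels do not show whether these mice make working Mx proteins. Mx1 stood at 161, 134, 75.5 and 84.9 CPM untreated and at 34.8, 21.2, 20.4 and 15.7 CPM with TGF-β1 in fl/fl cells. The highest treated library was under the lowest untreated one by a wide margin, a 4.95-fold fall (log2 fold change -2.31, SE 0.53, edgeR adjusted p = 0.00878). In KO, Mx1 stood at 15.6, 118, 146 and 166 CPM untreated and at 13.7, 19.6, 28.0 and 28.8 CPM with TGF-β1. The first untreated library, at 15.6 CPM, was below 3 of the 4 treated ones. The KO fall was 4.94-fold (SE 0.53 on the log2 scale, adjusted p = 0.0272), and 6.25-fold (log2 fold change -2.64, SE 0.29, adjusted p = 2.6e-06) without it. Mx2 stood at 36.3, 28.6, 19.5 and 16.3 CPM untreated and at 8.25, 5.96, 4.71 and 2.87 CPM with TGF-β1 in fl/fl, a 4.63-fold fall (adjusted p = 0.00801). Mx2 in KO stood at 3.92, 25.2, 33.2 and 35.6 CPM untreated and at 6.13, 4.81, 5.81 and 7.52 CPM with TGF-β1, with the first untreated library below all treated ones. Mx2 passed in KO with that library, a 4.02-fold fall (adjusted p = 0.0350), and without it, a 5.05-fold fall (adjusted p = 1.12e-05). The annotation types Mx2 as a polymorphic pseudogene, and the pair of Mx genes can share reads.

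Isg15 encodes the ubiquitin-like modifier of the response, Usp18 the protease that removes it and also restrains the receptor, and Herc6 its ligase. None of the 3 passed in fl/fl with all libraries. Isg15 stood at 26.8, 27.4, 18.5 and 29.7 CPM untreated and at 22.6, 15.3, 15.5 and 21.7 CPM with TGF-β1 in fl/fl, with overlap through the third untreated library and a log2 fold change of -0.45 (SE 0.25, adjusted p = 0.257). In KO it stood at 14.4, 39.8, 38.8 and 34.7 CPM untreated and at 22.6, 18.0, 21.2 and 20.5 CPM with TGF-β1, so the first untreated library was below every treated one. With that library the KO log2 fold change of Isg15 was -0.63 (edgeR adjusted p = 0.160). Without that library Isg15 fell 1.80-fold in KO (adjusted p = 0.00117), and its fl/fl log2 fold change of -0.45 had an adjusted p of 0.0532.

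Usp18 stood at 26.3, 28.1, 12.2 and 16.2 CPM in fl/fl untreated libraries and at 13.8, 6.84, 7.12 and 8.13 CPM with TGF-β1. The groups overlapped through the first treated library, and the log2 fold change was -1.21 (SE 0.41, edgeR adjusted p = 0.0573). In KO, Usp18 stood at 5.83, 29.8, 29.4 and 30.2 CPM untreated, 3 nearly equal values and 1 far below, and at 7.31, 9.37, 10.7 and 10.4 CPM with TGF-β1. With all libraries the KO log2 fold change of Usp18 was -1.33 (adjusted p = 0.071). Without the low library Usp18 fell in both genotypes, 3.09-fold in KO (adjusted p = 0.000177).

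Of the effectors that act on nucleotides and RNA, Rsad2 and Cmpk2 had the lowest fold changes under TGF-β1 in both genotypes. Rsad2 encodes viperin, which makes a chain-terminating nucleotide, and Cmpk2 the kinase that supplies its substrate. They are neighbours on chromosome 12, transcribed away from each other, with 12.75 kb between them. Rsad2 stood at 381, 308, 193 and 228 CPM in fl/fl untreated libraries and at 90.7, 49.4, 50.3 and 44.8 CPM with TGF-β1. The groups were far apart, with 1 treated library well above the other 3, and the fall was 4.72-fold (log2 fold change -2.24, SE 0.56, edgeR adjusted p = 0.0135). In KO it stood at 30.6, 324, 301 and 352 CPM untreated and at 24.6, 45.6, 66.1 and 67.9 CPM with TGF-β1. The fall was 4.93-fold (adjusted p = 0.0323), and 6.26-fold (log2 fold change -2.65, SE 0.30, adjusted p = 3.78e-06) without the first untreated library.

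Cmpk2 had the lowest adjusted p of the members in both genotypes. Its values were 199, 175, 119 and 126 CPM untreated and 45.4, 32.6, 35.8 and 31.4 CPM with TGF-β1 in fl/fl, a 4.27-fold fall (log2 fold change -2.09, SE 0.46, edgeR adjusted p = 0.00655). In KO, Cmpk2 stood at 25.2, 184, 179 and 203 CPM untreated and at 18.6, 30.4, 36.9 and 40.6 CPM with TGF-β1. As for Rsad2, the first untreated library lay inside the treated range and the other 3 lay far above it. The KO fall was 4.67-fold (adjusted p = 0.0190), and 5.86-fold (adjusted p = 1.17e-07) without that library. Samd9l, a translation inhibitor, fell 3.06-fold in fl/fl (adjusted p = 0.0202), with 13.7 CPM in TGF-β1 replicate 4 against 63.9 to 74.6 CPM in the other 3. Eif2ak2, the kinase PKR, Adar, the RNA-editing deaminase, and Isg20, an exonuclease, had log2 fold changes of -0.46, -0.13 and -0.54 in fl/fl and passed in neither genotype, with or without KO untreated replicate 1.

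Parp14, the highest in FPKM of the members in fl/fl untreated cells, stood at 1358, 1210, 755 and 809 CPM in fl/fl untreated libraries and at 698, 585, 459 and 321 CPM with TGF-β1. The groups did not overlap, but the log2 fold change of -1.0 (SE 0.34) did not pass, with an edgeR adjusted p of 0.0587. KO values were 397, 722, 1012 and 1280 CPM untreated and 310, 477, 594 and 718 CPM with TGF-β1, where the second untreated library was only just above the highest treated one. With all libraries the KO log2 fold change of Parp14 was -0.70 (adjusted p = 0.300). Without KO untreated replicate 1, Parp14 fell 1.88-fold in KO (adjusted p = 0.0376) and passed in fl/fl as well. Parp9, which works in a complex with the ubiquitin ligase Dtx3l, also passed in both genotypes without that library, and Dtx3l in neither. Parp9 and Dtx3l lie on opposite strands and overlap by 0.681 kb, and the counting is not stated to use strand, so reads of that stretch cannot be assigned.

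Rtp4, a chaperone and regulator of interferon signalling, had the lowest p of the membrane and other effectors. It stood at 94.6, 66.9, 44.3 and 55.3 CPM in fl/fl untreated libraries and at 32.7, 29.9, 27.5 and 30.4 CPM with TGF-β1. The treated libraries were closely spaced and all below the untreated ones, a 2.16-fold fall (log2 fold change -1.11, SE 0.28, edgeR adjusted p = 0.0114). In KO, Rtp4 stood at 29.6, 87.3, 85.2 and 91.2 CPM untreated and at 36.6, 38.5, 41.4 and 42.8 CPM with TGF-β1. The first untreated library was the lowest of the 8, and without it the fall was 2.16-fold (adjusted p = 0.000111), against a log2 fold change of -0.88 (adjusted p = 0.0739) with it. Xaf1, which promotes cell death, fell 1.87-fold in fl/fl (adjusted p = 0.0401).

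Bst2 encodes tetherin, which holds budding virions at the cell surface, and it did not follow the others. It stood at 69.3, 69.8, 76.8 and 94.7 CPM in fl/fl untreated libraries and at 68.9, 69.5, 92.2 and 123 CPM with TGF-β1. The groups overlapped throughout, with a log2 fold change of 0.19 (SE 0.22, edgeR adjusted p = 0.644). In KO it stood at 93.3, 160, 100 and 89.9 CPM untreated and at 146, 83.2, 94.3 and 88.9 CPM with TGF-β1, with 1 high library in each group. Its KO log2 fold change was -0.10 with all libraries and -0.14 without the first, neither past the test. Ifi44, Trim30a and Sp100 passed in fl/fl only, and Ifi35 in KO only, once KO untreated replicate 1 was left out.

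**Figure D3:**
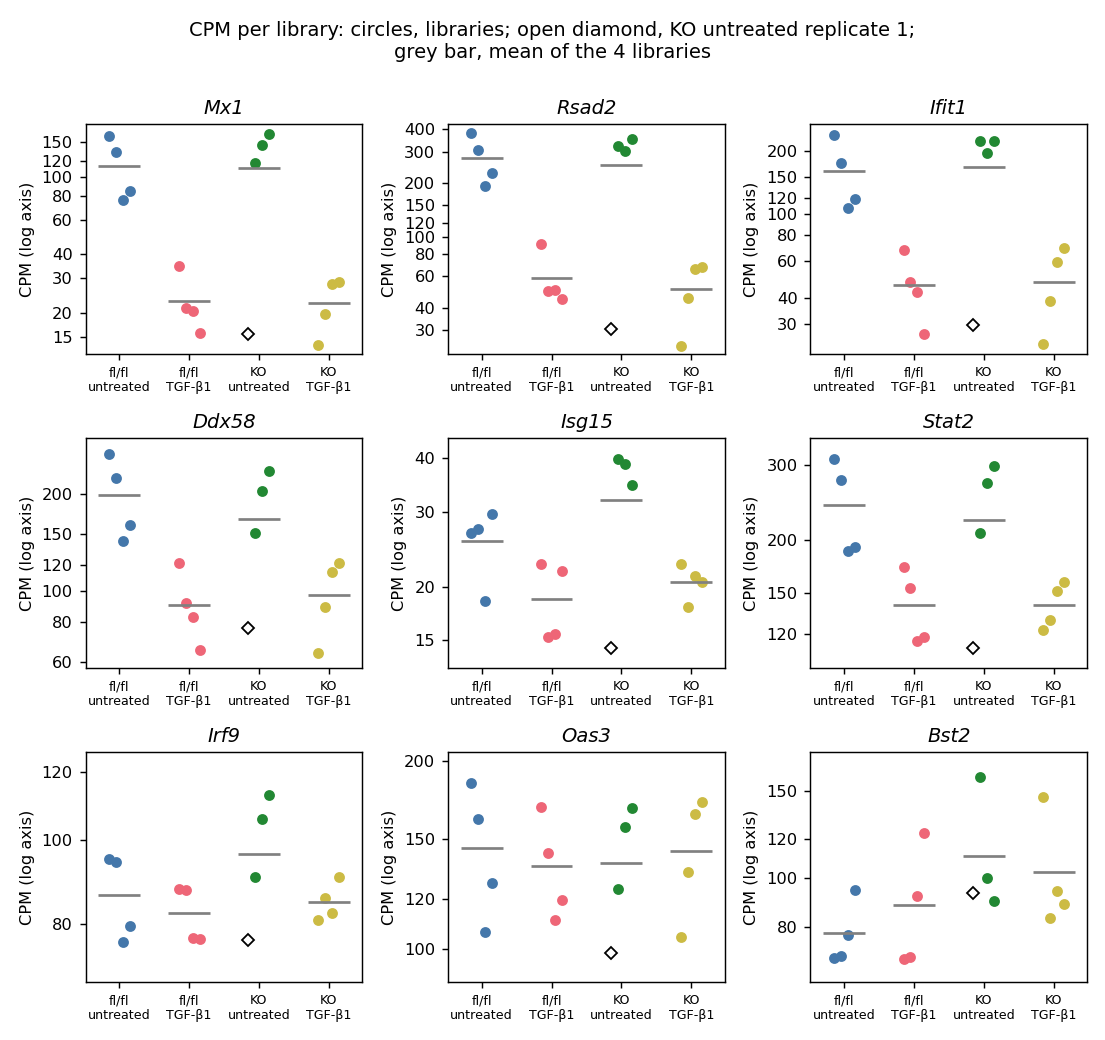
CPM on a log axis in each library for 9 members, by group, with circles for libraries, an open diamond for KO untreated replicate 1 and a grey bar at the mean of 4 libraries. For Mx1, Rsad2 and Ifit1 the diamond lies at the level of the TGF-β1 libraries, for Isg15 and Stat2 below them, and for Irf9, Oas3 and Bst2 the groups overlap.

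The same question was asked in KO cells, which carry the deletion. With all libraries 5 of the 39 members were lower with TGF-β1, against 2.97% of all tested genes, and 0 were higher, against 2.19%. The 5 were Oasl1, Mx1, Mx2, Rsad2 and Cmpk2. The median log2 fold change was -0.63, against -0.03 over all tested genes, with Oas3 alone above 0. With the library labelled KO untreated replicate 1 in its group, untreated and TGF-β1 libraries overlapped in every member, and 3.06% of all tested genes were lower and 2.98% higher without overlap.

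Without that library the picture of the KO cells was close to that of fl/fl in number. Then 27 of 39 members were lower, against 6.7% of the tested genes, and 0 were higher, against 8.17%. The median was -0.85 and all 39 log2 fold changes lay below 0, from -2.65 for Rsad2 to -0.04 for Oas3. In 32 members the 4 TGF-β1 libraries lay below the 3 remaining untreated ones, against 12.6% of all tested genes, and in 0 they lay above, against 11.5%. With all 16 libraries and the number as a block within genotype the count was 16, against 3.68%, with 0 higher against 3.92%. DESeq2 with all libraries called 10 lower and 0 higher, against 4.02% and 3.58%. The count of 5 went to 0 without any 1 of the other 3 KO untreated libraries or of the 4 KO TGF-β1 libraries, where 0.456% to 1.09% of the tested genes were called lower. It went to 2 without fl/fl TGF-β1 replicate 2 (2.07%) and to 3 without fl/fl TGF-β1 replicate 3 (2.01%).

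The members called in the 2 genotypes were compared next, first without that library. Of the 27 called in each genotype, 24 (88.9%) were called in both, and 9 members were called in neither. Of all genes called lower in that fit, 60.9% of those called in fl/fl and 82% of those called in KO were called in both. With all libraries 4 members were called in both, which is 33.3% of the fl/fl calls and 80% of the KO calls, against 35.6% and 91% of all genes called lower. Without KO untreated replicate 1, Ifi44, Trim30a and Sp100 were called in fl/fl alone and Oas1g, Isg15 and Ifi35 in KO alone. Across the 39 genes, the 2 sets of log2 fold changes of that fit share no library. Their Pearson correlation was 0.938 and their Spearman correlation 0.893, and with all libraries 0.936 and 0.891. The points are genes, which are not independent replicates, and both sets come from one normalisation.

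**Figure D4:**
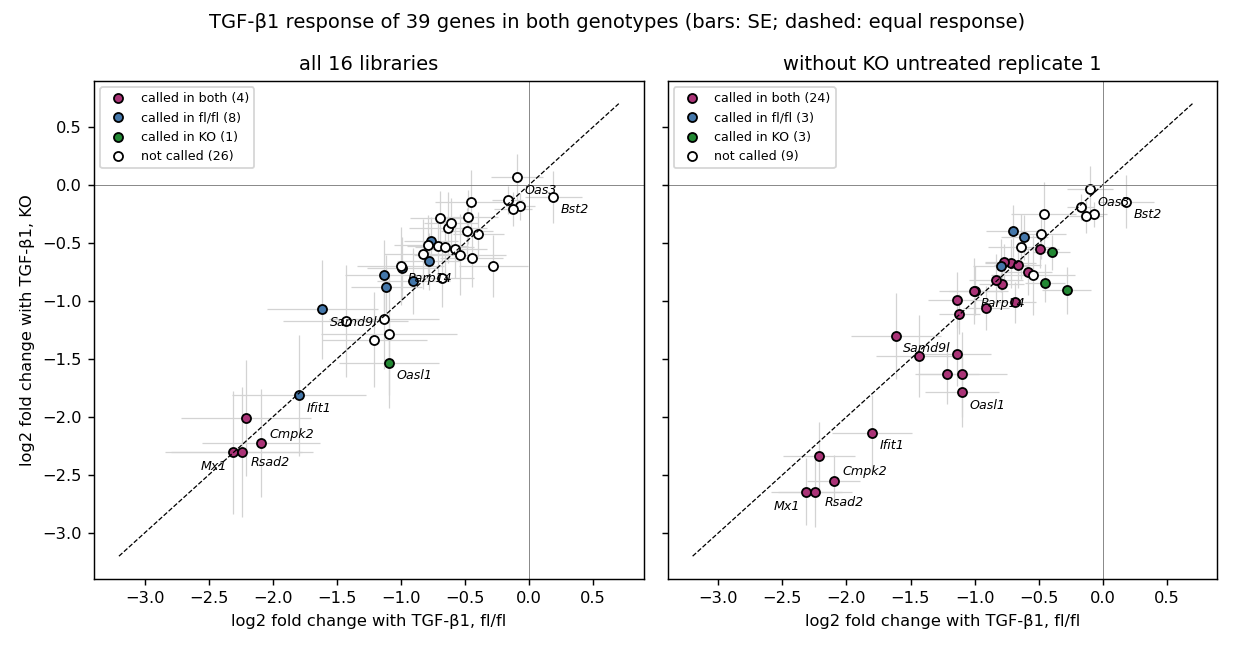
Log2 fold change with TGF-β1 in fl/fl (horizontal axis) and in KO (vertical axis) for the 39 genes, with SE bars and a dashed line of equal response, for all 16 libraries (left) and without KO untreated replicate 1 (right). Colours show in which genotype a gene passed the test: 4 genes in both on the left and 24 on the right.

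The comparison of KO with fl/fl asks whether the deletion alters these genes. In untreated cells edgeR called 0 members higher and 0 lower, against 0.00765% and 0.0382% of all tested genes. The median difference was -0.02 on the log2 scale, and at an unadjusted p under 0.05 there was 1 member, Bst2, against 10.9% of all tested genes. DESeq2 called 0 members in this comparison, but the share of all genes it called is not given here. That 0 therefore cannot be read as a result about the members. The groups overlapped in every member, while 4.11% of all tested genes were lower and 3.94% higher without overlap. With KO untreated replicate 1 left out the counts were again 0 and 0 (0.03% and 0.0675% of 13335 genes), but the median was 0.24, 34 of 39 differences were above 0, against 49.3% of all tested genes. At an unadjusted p under 0.05, 9 members were higher, against 5.85% of all tested genes, and 0 lower, against 5.94%.

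Those with the lowest p, chosen after their values were seen, were Ifi35, Oas1g and Isg15. Ifi35, an interferon-induced leucine zipper protein, stood at 18.0, 12.5, 12.2 and 14.4 CPM in fl/fl untreated libraries and at 33.5, 17.4 and 20.6 CPM in KO untreated libraries 2 to 4, a log2 difference of 0.72 (SE 0.20, edgeR adjusted p = 0.287). For Isg15 the difference was 0.54 (SE 0.16, adjusted p = 0.305). In 6 members, Irf7, Oas1g, Oas2, Oasl1, Isg15 and Usp18, all 3 KO libraries lay above all 4 fl/fl libraries, against 7.18% of all tested genes, and in 0 they lay below, against 7.05%. No such difference passed the correction. The 95% intervals of the difference, taken from its SE and the degrees of freedom of the fit, lay within a 2-fold change either way for 31 of 39 members and above 0 for 9. With all 16 libraries the numbers were 26 and 1.

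Under TGF-β1 the KO against fl/fl comparison does not use the untreated libraries except for the spread. Again edgeR called 0 members higher and 0 lower, against 0.00765% and 0.0306% of all tested genes (0.0075% and 0.0525% without KO untreated replicate 1). DESeq2 called 0 members, with its share of all genes again not given, so that count is no result about the members. The median difference was 0.11, and 34 of 39 differences were above 0, against 52.2% of all tested genes. An unadjusted p under 0.05 was reached by 0 members, against 5.61% of all tested genes. Without KO untreated replicate 1, 3 of 39 members reached it, all higher in KO. In that fit 3.37% of all tested genes were higher and 3.23% lower at that p. Only Rtp4 had groups that did not overlap, with KO higher, against 2% of all tested genes, and 0 members were lower without overlap, against 2.61%. The intervals of 29 of 39 members lay within a 2-fold change either way, and those of 38 did without that library.

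The difference between the TGF-β1 responses of KO and fl/fl, tested as an interaction in edgeR, was called for 0 members, and 0% of all tested genes were called in either direction. At an unadjusted p under 0.05 there were 275 genes (2.1%) and 0 members. With KO untreated replicate 1 left out there was 1 member, against 2% of 13335 genes. It was Ifi35, with a log2 difference of -0.63 (SE 0.28, edgeR unadjusted p = 0.0367). DESeq2 called 0 members with all libraries, with its share of all genes not given here, so that count is no result about the members. The median of the difference was 0.09 with all libraries and -0.07 without that one. Its interval lay within a 2-fold change either way for 17 of 39 members with all libraries and for 26 without that one, so for the others a difference of that size is inside the interval.

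The ligands and the rest of the pathway were read from lists beside the members. Of 20 interferon ligand genes, 18 had no read in any library. The others were Ifnb1, the interferon beta gene, with 8 reads in all, every one in an untreated library, and Ifnk with 18. No library had more than 4 reads of any of them, and a floor of 3 reads is 0.126 to 0.178 CPM, so changes of the ligands were not detectable at this depth.

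For the lists that follow, the shares of all tested genes called are those given above. Of 9 genes for receptors and signal transducers, 1 was higher and 1 lower with TGF-β1 in fl/fl, near the 7.87% and 7.61% of all tested genes. In KO 0 were higher and 1 lower, and leaving out KO untreated replicate 1 did not alter these counts. Ifngr1, the ligand-binding chain of the interferon gamma receptor, fell (log2 fold change -0.72, SE 0.15, edgeR adjusted p = 0.00365), and it also fell in KO (-0.60, adjusted p = 0.0325). Ifngr2, the other chain, rose in fl/fl (0.35, SE 0.09, adjusted p = 0.0129) and had 0.13 in KO (adjusted p = 0.540). Ifnar1, Ifnar2, Jak1 and Tyk2 passed in neither genotype. These 4 were chosen after their values were seen, as parts of the receptor pathway described above.

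Of 8 negative regulators 1 was higher and 0 lower in fl/fl, and 0 were called in KO. Without KO untreated replicate 1 the counts were 1 and 1 in fl/fl, and 1 and 2 in KO. The one higher in fl/fl was Ptpn1, a phosphatase that acts on JAK kinases (0.45, SE 0.12, edgeR adjusted p = 0.0140). Socs1, the feedback inhibitor of JAK kinases, stood at 0.430, 3.80, 6.11 and 3.89 CPM in KO untreated libraries and at 1.18, 0.491, 1.05 and 1.07 CPM with TGF-β1. It passed in KO only without the first untreated library (-2.25, SE 0.49, adjusted p = 0.00313).

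Of 17 tested genes in the pathways that induce interferon, 3 were higher and 5 lower in fl/fl, and 0 higher and 5 lower in KO. Leaving out KO untreated replicate 1 gave 3 and 6 in fl/fl, and 2 and 7 in KO. Tlr4, the receptor for lipopolysaccharide, stood at 190, 164, 162 and 153 CPM in fl/fl untreated libraries and at 67.4, 70.5, 55.2 and 33.6 CPM with TGF-β1. Its log2 fold change was -1.56 in fl/fl (edgeR adjusted p = 0.000753) and -1.06 in KO (adjusted p = 0.0210). Ikbke, a kinase of interferon regulatory factors, fell in both genotypes (-1.45 and -1.49). Traf3, an adaptor of the same branch, and Tmem173, the DNA-sensing adaptor STING, were higher in fl/fl (0.71, adjusted p = 0.00555, and 0.56, adjusted p = 0.0106). In KO they had 0.53 (adjusted p = 0.0623) and 0.48 (adjusted p = 0.0527) with all libraries, and without KO untreated replicate 1 both rose, by 0.75 (adjusted p = 0.000675) and 0.72 (adjusted p = 3.2e-05).

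Of 29 further interferon-stimulated genes outside the 39, 1 was higher and 9 lower in fl/fl, and 1 higher and 4 lower in KO. Leaving out KO untreated replicate 1 gave 1 and 14 in fl/fl and 1 and 15 in KO. Pml, the organiser of nuclear bodies, fell by 1.23 on the log2 scale in fl/fl (edgeR adjusted p = 0.00212), and Mndal, a PYHIN relative of Ifi204, fell by 1.33 (adjusted p = 0.0233). Apobec3, a cytidine deaminase that restricts retroviruses, fell by 0.88 in KO (adjusted p = 0.0207). Lgals9, the lectin galectin-9, was the one that rose, by 0.79 in fl/fl (adjusted p = 0.00289) and 0.60 in KO (adjusted p = 0.0388).

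Of 14 tested genes induced chiefly by interferon gamma, 1 was higher and 7 lower in fl/fl, and 1 higher and 5 lower in KO. With KO untreated replicate 1 left out they were 1 and 10 in each genotype. Cxcl10, a chemokine that recruits T cells, stood at 161, 110, 65.0 and 85.6 CPM in fl/fl untreated libraries and at 22.6, 13.2, 17.8 and 25.9 CPM with TGF-β1. Its log2 fold change of -2.40 (SE 0.59, edgeR adjusted p = 0.0128) was close to that of Mx1, and it was -2.30 in KO (adjusted p = 0.0388). Gbp5, a guanylate-binding protein, fell by 2.23 in fl/fl (adjusted p = 0.0146) and 2.17 in KO (adjusted p = 0.0395). Irf8, a myeloid transcription factor, rose by 0.65 (adjusted p = 0.00221) and 0.46 (adjusted p = 0.0399).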

How the data were processed

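The tools named in the submitters' processing notes are HTSeq 0.6.1, Cufflinks 2.1.1 and TopHat2 2.0.9, and the builds are GRCm38.p6 and mm10. Their roles are not stated there. Strand and multi-mapping options are not given in the sources used here. The authors' deposited table holds raw read counts for 35275 genes in 16 libraries. Their deposited FPKM table equals count over gene length and library total for 100% of the positive values checked, within 0.1%. The labels speak of 8 cDNA libraries and list 16 samples.

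Counts were scaled by TMM and filtered with filterByExpr in edgeR 4.0.16 (R 4.3.3). CPM is relative to the TMM-scaled total. A quasi-likelihood model with robust estimation and a mean per group was fitted to all 16 libraries, and F-tests were adjusted by Benjamini-Hochberg over the 13080 genes tested, at 0.05. Every adjusted p given comes from that model where no other tool stands beside it. SE is the absolute log2 fold change over the square root of F. The fit without KO untreated replicate 1 was filtered anew and tested 13335 genes. Simulated 2-fold changes in 200 genes were recovered for 69.5% in the fl/fl comparison, with 0 in the wrong direction. The simulated counts were drawn independently for each gene, with no shift shared by the genes of a library. The rate need not hold for the members.

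The 39 genes, the pathway and marker lists and the tests were chosen with earlier results of these data known. Values in all libraries are given for the member of each role group with the highest mean FPKM over all libraries and the one with the lowest p in fl/fl. Named by rule from each pathway list were up to 2 called genes with the largest and 2 with the smallest log2 fold change, or else the gene with the lowest p. Alternatives were other scaling (RLE), DESeq2 1.42.0, no filter, limma 3.58.1 on log2(FPKM + 1) and log2(FPKM + 0.1), the compared groups alone, the replicate number as a block and each library left out. Fits that left out KO untreated replicate 1 together with another change, and blocks within genotype, were added after seeing the data.

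The replicate numbers come from the sample titles. Deviations from group means of same-numbered fl/fl libraries correlated at 0.123 to 0.181, over 0.1 in all 4 pairs. The main fit did not pair libraries by number. Only the fits with a block and the differences within same-numbered pairs used the numbers. Differently numbered fl/fl libraries correlated at -0.216 to 0.200, and 2 of 4 untreated ones correlated best with their own number. The pairing is therefore not established. In KO same-numbered libraries correlated at 0.0755 to 0.239, over 0.1 in 2 of 4, and differently numbered ones at -0.237 to 0.184. Without replicate 1 the same-numbered values were 0.226, 0.113 and 0.153, all over 0.1. Counts carry no molecular identifiers, so the floor of 3 counts covers counting error only. Promoters are from RefSeq (GRCm38.p6), and the 10 members with no entry are not shown. Ifit3b, Ifit1bl1, Ifi213, Ifi211, Ifi209 and Adgre1 were not analysed here. Values of 2 genes of the pathway lists are not reported here.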

Additional observations from a re-analysis of the deposited data

Results flagged for a closer look

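In each group of 4 libraries, every member and Smad7 were checked for a single library far from the other 3, 160 checks in all, of which chance alone would be expected to mark about 1 in 20. Of the 12 marked values 9 came from the library labelled KO untreated replicate 1. In CPM these were Irf7 at 45.5 (others 108 to 116), Oas1a at 77.3 (99.0 to 102), Ifit1 at 29.5 (195 to 224), Usp18 at 5.83 (29.4 to 30.2), Rsad2 at 30.6 (301 to 352), Cmpk2 at 25.2 (179 to 203), Rtp4 at 29.6 (85.2 to 91.2) and Xaf1 at 16.5 (47.3 to 52.9), all low. Smad7 was high in that library, at 5.87 CPM against 1.28 to 2.00. Bst2 was high in KO untreated replicate 2, at 160 CPM against 89.9 to 100. In fl/fl TGF-β1 replicate 1, Rsad2 was high at 90.7 CPM (others 44.8 to 50.3) and Isg20 at 3.46 CPM (1.88 to 2.14).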

How the results depend on the processing

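No member was called higher with TGF-β1, and none was called between genotypes or for the difference of the responses, in any fit run. For the last 2 kinds of comparison, shares of all genes are given only for edgeR with all libraries and without KO untreated replicate 1. The absence of calls in the other fits cannot be read as a result about the members. The median log2 fold change stayed between -0.88 and -0.62 in fl/fl and between -0.91 and -0.46 in KO. The medians of the KO against fl/fl differences spanned 0, from -0.158 to 0.294 untreated and from -0.0039 to 0.233 with TGF-β1, and so did that of the difference of the responses, from -0.172 to 0.291. The count lower with TGF-β1 did depend on the fit. For fl/fl (12) it was 23 with DESeq2, 7 with no filter, 19 with limma on log2(FPKM + 0.1), 23 with the compared groups alone and 21 without both KO untreated replicate 1 and fl/fl TGF-β1 replicate 4, and leaving out 1 library each gave 5 to 27. For KO (5) the same fits gave 10, 1, 2, 0 and 28, limma on log2(FPKM + 1) gave 3, the compared groups alone without KO untreated replicate 1 gave 29, and leaving out 1 library each gave 0 to 27. The fits that leave out KO untreated replicate 1 together with another change, and those with the block within genotype, were chosen after seeing the data. With the replicate block across genotypes the counts were 10 and 5, or 24 and 26 without KO untreated replicate 1. With the block within genotype they were 29 and 16, or 31 and 29 without that library. In fl/fl, DESeq2 called 8.35% of its tested genes lower, and the block within genotype with all libraries called 9.05%. Leaving out 1 library each gave 4.68% to 9.02%. In KO these shares were 4.02%, 3.68% and 0.456% to 6.7%. Shares for the other fits are not given here, so their counts cannot be read as a result about the members. The cause of these shifts was not tested.

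Among the TGF-β1 log2 fold changes of the members and named genes, signs turned for Irf9, Oas3 and Bst2, none of which passed the test. In fl/fl, the log2 fold change of Irf9 ran from -0.128 to 6.5e-04 and that of Oas3 from -0.224 to 0.0608 over the fits that left out 1 library each, above 0 for both without fl/fl untreated replicate 1 and for Oas3 (0.0060) without fl/fl TGF-β1 replicate 3. In KO, Oas3 ran from -0.0381 to 0.206, below 0 without KO untreated replicate 1 or KO TGF-β1 replicate 4 (-0.0187). It was -0.0473 with the compared groups alone and -0.0664 with the replicate block, each without KO untreated replicate 1, and -0.0440 without that library and fl/fl TGF-β1 replicate 4. Bst2 in KO ran from -0.300 to 0.139, above 0 without KO untreated replicate 2 or KO TGF-β1 replicate 2 (0.0111). The ligands were at or near the floor of 3 counts, which limits any statement on them.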
